A study of Mus musculus with 12 samples.

Results

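The genes described here are 9 symbols of plasma cells and myeloid cells that were read in RNA-seq libraries of sorted mouse CD4+ T cells: Jchain, Lyz2, Csf1r, Lilrb4, Gp49a, Lilr4b, Mpeg1, Plek and Ctss. They were taken by symbol from the 2 deposited expression tables, all 9 of 10405 symbols in the table of regulatory T cells (Treg) and 5 of 9886 in the table of conventional T cells (Tcon). Csf1r, Lilrb4, Gp49a and Lilr4b were listed in the Treg table only. Gp49a is an older name of Lilr4b and held identical values, so the 9 symbols carry 8 value patterns, and Gp49a is not repeated below. Their CPM levels in these libraries were known when they were chosen, and they are treated as selected on the gap between spleen and lymph node, so the values that compare those organs are a description and support nothing.

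The study gave mice a stapled peptide, SAH-FOXP3(229-259)C (SAH below), or its vehicle, written as DMSO in the titles, and sorted T cells from lymph node (LN) and spleen. All mice had the background B6.Cg-Foxp3tm2Tch/J, a reporter strain in which GFP is made from the Foxp3 transcript, and the peptide was injected into the peritoneum at 25 mg/kg once a day for 2 days. Each cell type had 6 libraries: library 01 from LN with vehicle, 02 and 03 from LN with SAH, 04 from spleen with vehicle, and 05 and 06 from spleen with SAH. Treg were sorted as CD4+CD25+FOXP3+ cells and Tcon as naive CD4+ cells. The labels do not say whether libraries came from separate mice, so spreads and p-values cover the spread between libraries, which may be technical. With 1 vehicle library in each organ, the spread of vehicle libraries within an organ is not known.

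Values are CPM, read counts relative to a library size that the authors scaled. In these libraries 1 read was worth 0.0209 to 0.0267 CPM, and 36442420 to 48888678 reads lay in listed genes. Every listed gene reached 1 CPM in at least 3 libraries of its table. Jchain, Csf1r and Lilr4b in Treg, and Jchain, Lyz2 and Mpeg1 in Tcon, were below 1 CPM in all 3 LN libraries, so they were listed only through spleen. For any gene listed in this way, a higher value in spleen was fixed by the listing. The T cell reference genes were abundant everywhere: the sum of 9 of them (Cd3e, Cd4, Lck, Thy1 and others) ran from 4867 to 4974 CPM in LN Treg, 4973 to 5137 in spleen Treg, 5332 to 5594 in LN Tcon and 5315 to 5567 in spleen Tcon.

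Each member is best known from cells other than T cells. Plasma cells secrete antibody, and the J chain joins IgA and IgM into polymers. Macrophages and monocytes depend on signals through the CSF1 receptor, carry lysozyme and pore-forming proteins against microbes, and are tuned by paired activating and inhibitory receptors of the immunoglobulin superfamily. The spleen holds plasma cells in its red pulp and many macrophages, among them those that clear old red cells. In bulk libraries, fewer cells of a type and less RNA per cell cannot be told apart.

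The members lie on different chromosomes of mm10 (GENCODE M21, all protein coding), apart from 3 on chromosome 10. Jchain spans chr5:88519809-88527891 on the minus strand, Mpeg1 chr19:12460779-12465283 on the plus strand, Plek chr11:16971206-17052381 on the minus strand and Ctss chr3:95526786-95556403 on the plus strand. Lilr4b (chr10:51480632-51486703) and Lilrb4, named Lilrb4a in that annotation (chr10:51490956-51496611), are neighbours on the plus strand. Lyz2 (chr10:117277331-117282321) lies on the minus strand beside Lyz1, the second mouse lysozyme gene. Neighbouring copies share transcript sequence: 15.4% of the 50-base stretches of Lyz2 transcripts occur in Lyz1, and 24.1% of those of Lilr4b occur in Lilrb4a. Of 100-base stretches, 1.97% and 8.47% were shared. These shares are over all annotated transcripts of a gene. Lilr4b had 6241 different 50-base stretches, against 1836 exon bases used for its level per kilobase, so its shares are not those of that exon sequence. How the counting assigned reads from such stretches is not given in the sources used here, so the split within each pair is uncertain.

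The upstream sequences of Lyz2 and Lyz1 are shown because both genes were higher together in spleen libraries, and that of Jchain because it had the widest gap between organs. They run from 250 to 51 bases before the RefSeq start (GRCm38.p6), 5′ to 3′ on the gene's strand, at chr10:117282323-117282522 for Lyz2, chr10:117292919-117293118 for Lyz1 and chr5:88527948-88528147 for Jchain, all on the minus strand. Capitals mark GGAAGT or its reverse complement ACTTCC, a core bound by ETS-family factors such as PU.1, a regulator of myeloid genes.
Lyz2: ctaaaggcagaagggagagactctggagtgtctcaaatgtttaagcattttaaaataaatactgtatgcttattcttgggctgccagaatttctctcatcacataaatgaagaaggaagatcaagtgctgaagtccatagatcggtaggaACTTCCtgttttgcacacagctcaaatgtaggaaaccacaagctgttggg
Lyz1: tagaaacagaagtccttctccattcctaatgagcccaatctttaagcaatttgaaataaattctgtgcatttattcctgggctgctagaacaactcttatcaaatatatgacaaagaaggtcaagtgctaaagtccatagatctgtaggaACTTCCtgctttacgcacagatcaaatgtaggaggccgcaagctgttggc
Jchain: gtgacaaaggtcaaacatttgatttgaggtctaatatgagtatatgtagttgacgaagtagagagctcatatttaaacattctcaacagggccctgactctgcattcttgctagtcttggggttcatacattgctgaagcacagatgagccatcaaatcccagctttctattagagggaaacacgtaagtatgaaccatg
Both lysozyme windows hold ACTTCC starting 100 bases before the start. Compared position by position without gaps, they match at 102 of 200 positions (51%), a count that shifted stretches lower. The motif, searched on both strands, lies in 4803 of 32851 such windows (14.6%). No match was found in the windows of Jchain, Ctss, Lilr4b, Plek or Mpeg1, and Csf1r and Lilrb4 were not searched. A match is a run of letters and no evidence of binding.

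Jchain was the member with the widest gap between organs in both cell types. In LN Treg it was at 0.147 CPM in the vehicle library and 0.849 and 0.625 CPM in the SAH libraries, from 6, 39 and 25 reads. In spleen Treg it was at 107.8 CPM with vehicle and at 72.1 and 119.9 CPM with SAH. All spleen libraries lay above all LN libraries, with means of 99.9 ± 24.9 CPM (SD, n = 3) in spleen and 0.540 ± 0.359 CPM (SD, n = 3) in LN, a ratio of 185.

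In Tcon, Jchain was at 0.373, 0.308 and 0.281 CPM in LN libraries 01 to 03. In spleen it was at 102.5 CPM in the vehicle library and at 36.7 and 38.9 CPM in the SAH libraries. The groups again did not overlap, with means of 59.4 ± 37.3 CPM (SD, n = 3) and 0.321 ± 0.0476 CPM (SD, n = 3). The ratio of the means was again 185. Within the SAH libraries it was 130 in Treg and 128 in Tcon, and between the 2 vehicle libraries it was 736 in Treg (95% counting interval 338 to 2006, over 6 LN reads) and 274 in Tcon (163 to 502, over 14 LN reads).

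Other plasma cell genes did not share that gap. Of the 22 genes of the plasma cell list, 7 were listed in Treg and 6 in Tcon, and none of the immunoglobulin heavy or light chain genes of the list had a row. Without Jchain, the list summed to 336 to 363 CPM in LN Treg and 326 to 354 CPM in spleen Treg, and to 365 to 389 CPM in LN Tcon and 286 to 384 CPM in spleen Tcon. Most of that sum was Irf4 and Xbp1, regulators that T cells also express. Xbp1, the transcription factor of the unfolded protein response, was at 81.3, 96.7 and 97.6 CPM in LN Treg and at 104.9, 100.5 and 96.5 CPM in spleen Treg. Txndc5, a disulfide isomerase of the endoplasmic reticulum, was at 46.2 to 52.5 CPM in LN Treg and 52.6 to 57.7 CPM in spleen Treg.

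Of the 6 listed plasma cell genes that are not members, Prdm1 and Pou2af1 were called higher in spleen Treg, Irf4 and Derl3 were called lower, and 2 were not called. A call here is an adjusted p below 0.05 (limma, with every gene in the table counted in the Benjamini-Hochberg adjustment), which 14.7% of Treg genes passed between organs (8.71% higher in spleen and 6.01% lower). Of those, 906 were higher and 625 lower, and 718 and 834 with each library rescaled to the same total over the listed genes. Prdm1, which encodes the plasma cell regulator Blimp-1, differed by 0.39 on the log2(CPM + 1) scale and Pou2af1, a B cell coactivator, by 0.71. In Tcon, where 4.73% of genes were called (3.28% higher and 1.46% lower), Prdm1 (0.40) and Pou2af1 (0.41) were called higher and none of the 5 lower. The median difference of the list without Jchain was 0.13 in Treg and 0.10 in Tcon, against a median near 0 over all genes of each table.

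Lyz2, lysozyme M of macrophages, monocytes and neutrophils, had the second widest gap on the log2(CPM + 1) scale in both cell types, though in Treg its ratio of means was below that of Csf1r. In LN Treg it was at 1.29, 1.33 and 0.901 CPM in libraries 01 to 03. In spleen Treg it was at 21.6 CPM with vehicle and 38.2 and 52.2 CPM with SAH. Spleen and LN did not overlap (37.3 ± 15.3 against 1.17 ± 0.238 CPM, SD, n = 3 each), a ratio of 31.8.

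In LN Tcon, Lyz2 was close to the detection limit, at 0.080, 0.664 and 0.179 CPM from 3, 28 and 7 reads. In spleen Tcon it was at 19.4, 22.7 and 18.1 CPM. The spleen Tcon libraries were closer together than the spleen Treg libraries, and the ratio of means was 65.2.

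Lyz1, which is not a member, followed Lyz2 at a lower level. It was at 0.22, 0.13 and 0.18 CPM in LN Treg and at 2.84, 5.24 and 6.30 CPM in spleen Treg. Spleen Lyz2 was 7.28 to 8.28 times Lyz1 in Treg and 6.26 to 8.96 times in Tcon. The shared transcript stretches of the pair bear on this ratio. Mpeg1 was 1.64 to 2.34 times Csf1r in spleen Treg, its highest ratio 1.43 times its lowest, as for Lyz2 over Lyz1 in Tcon. Lyz2 stood at 2.91 times Csf1r in the spleen Treg vehicle library and at 6.94 and 6.88 times in the SAH libraries. All ratios between genes in this paragraph are of CPM, uncorrected for transcript length, and do not give relative transcript levels. Jchain stood at 5.0 times Lyz2 in the spleen Treg vehicle library and 5.29 times in the spleen Tcon vehicle library, against 1.89, 2.30, 1.61 and 2.16 times in the 4 spleen SAH libraries.

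Csf1r, the receptor for CSF1 and IL-34 on which macrophages depend, was listed in Treg only. It was at 0.195, 0.239 and 0.15 CPM in LN, from 8, 11 and 6 reads, and at 7.41, 5.50 and 7.59 CPM in spleen. The spleen libraries lay close together and all above LN, with a ratio of means of 35.0.

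Lilrb4 encodes an inhibitory receptor of myeloid cells (gp49B), and Lilr4b its neighbour gp49A, which lacks the inhibitory motifs. Lilrb4 was at 0.684, 1.48 and 0.676 CPM in LN Treg and at 15.6, 16.6 and 12.5 CPM in spleen Treg. Lilr4b was at 0.489, 0.718 and 0.50 CPM in LN Treg and at 10.1, 12.9 and 8.10 CPM in spleen Treg. Both were highest in library 05 and lowest in library 06 among spleen libraries, with Lilrb4 at 1.29 to 1.55 times Lilr4b. Their shared transcript stretches bear on this ratio, which is of CPM and uncorrected for transcript length.

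Mpeg1, which encodes the pore-forming protein perforin-2, and Plek, which encodes the protein kinase C substrate pleckstrin of platelets and leukocytes, had narrower gaps. Mpeg1 was at 1.15, 2.05 and 1.10 CPM in LN Treg and 12.2, 11.4 and 17.7 CPM in spleen Treg, a ratio of means of 9.61. In Tcon it was at 0.267, 0.925 and 0.536 CPM in LN and 12.8, 5.74 and 7.0 CPM in spleen, a ratio of 14.8. With vehicle, Mpeg1 was at a similar level in spleen Tcon and spleen Treg, while both spleen Tcon libraries with SAH were lower.

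Plek was above 1 CPM in every library. It was at 2.69, 3.55 and 3.80 CPM in LN Treg and 12.4, 15.2 and 16.7 CPM in spleen Treg, and at 1.55, 1.47 and 1.48 CPM in LN Tcon and 6.76, 7.97 and 6.96 CPM in spleen Tcon. Spleen exceeded LN in all cases, by ratios of means of 4.41 and 4.82.

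Ctss, cathepsin S, the lysosomal protease that trims the invariant chain in MHC class II loading, differed from the other members in level and direction. It was at 269, 288 and 296 CPM in LN Treg and at 209, 214 and 193 CPM in spleen Treg. In Tcon it was at 183, 213 and 179 CPM in LN and at 166, 166 and 147 CPM in spleen. Spleen lay below LN without overlap in both cell types, with ratios of means of 0.723 and 0.831.

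**Figure D1:**
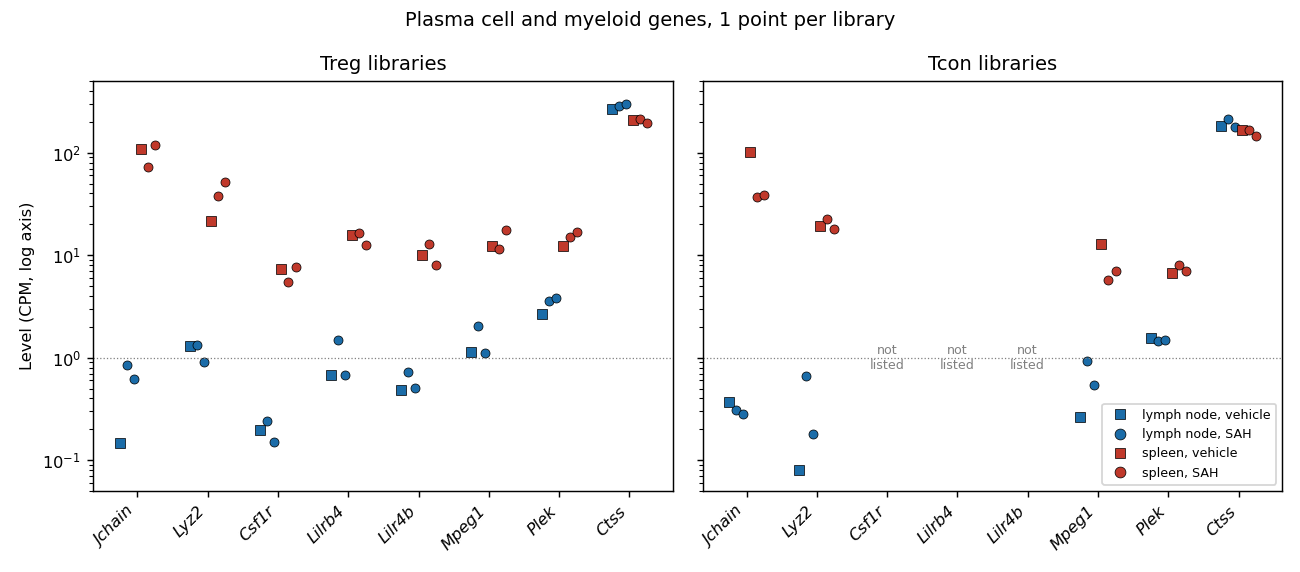
Level of each member in CPM (log axis) in the 6 Treg and 6 Tcon libraries; squares are vehicle and circles SAH libraries, blue LN and red spleen, and the dotted line marks 1 CPM. Spleen points lie above LN points for each listed member except Ctss, whose spleen points (193 to 214 CPM in Treg) lie below its LN points (269 to 296 CPM).

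Counted over members, 7 of 8 Treg genes had every spleen library above every LN library and 1 had every spleen library below. Over all Treg genes those shares were 16.8% and 15.1%. In Tcon, 4 of 5 members lay above and 1 below, against 10% and 9.33% of all genes. A spleen mean at least 4 times the LN mean was found for 33 Treg symbols (0.317%), 8 of them members (7 genes), and for 58 Tcon symbols (0.587%), 4 of them members. These counts restate how the members were picked.

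On the log2(CPM + 1) scale, which understates changes of genes near 0, the modelled difference of spleen from LN in Treg was 6.03 for Jchain (95% interval 5.66 to 6.40), 4.06 for Lyz2 (3.65 to 4.46), 3.05 for Lilrb4, 2.84 for Lilr4b, 2.70 for Csf1r, 2.60 for Mpeg1, 1.86 for Plek and -0.47 for Ctss (-0.58 to -0.35). In Tcon it was 5.35 for Jchain (4.87 to 5.82), 4.03 for Lyz2 (3.70 to 4.36), 2.55 for Mpeg1, 1.72 for Plek and -0.26 for Ctss (-0.43 to -0.09). By the same call rule all 8 Treg members and 4 of 5 Tcon members passed, all but Ctss. Beside the 14.7% and 4.73% of all genes, nothing is read from this, since the organ contrast chose the members.

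The organ difference in Treg was set against that in Tcon for the 5 shared members. In a fit over all 12 libraries without a replicate block, 143 of 9784 genes (1.46%) had a called difference between cell types, and none of the 5 did. The estimate, Treg minus Tcon, was 0.68 for Jchain (95% interval -0.04 to 1.40, adjusted p = 0.445 by limma), and its lower and upper limits for Lyz2 were -0.60 and 0.66. Mpeg1 (0.05), Plek (0.14) and Ctss (-0.20) had intervals that include 0. With library number as a replicate block the Jchain difference passed the threshold (adjusted p = 0.0106 by limma), and the labels do not say what equal numbers share.

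The direction of the organ ratio was the same within each treatment for every member, and its size varied. In Treg it was 37.9 with vehicle and 33.6 with SAH for Csf1r, 20.7 and 17.2 for Lilr4b, 22.8 and 13.5 for Lilrb4, 10.6 and 9.26 for Mpeg1, and 4.60 and 4.34 for Plek. Lyz2 had 16.7 with vehicle and 40.5 with SAH. Ctss stayed under 1 in both, at 0.778 and 0.698. In Tcon the ratios with vehicle exceeded those with SAH for Lyz2 (242, counting interval 82.5 to 1175 over 3 LN reads, against 48.4) and Mpeg1 (48.1, counting interval 26.0 to 101 over 10 LN reads, against 8.72), as for Jchain in both cell types. Plek in Tcon had 4.37 and 5.06 and Ctss 0.903 and 0.797. These counting intervals are exact and cover counting error only, each vehicle ratio comparing 1 library with 1.

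Levels of different members can be set side by side only per length of transcript. Per kilobase in spleen Treg, Ctss was highest (151 ± 8.23 CPM per kb, SD, n = 3), followed by Jchain (71.7 ± 17.9), Lyz2 (28.4 ± 11.6), Lilrb4 (10.4 ± 1.5), Lilr4b (5.65 ± 1.31), Plek (3.43 ± 0.514), Mpeg1 (3.17 ± 0.801) and Csf1r (1.40 ± 0.237). Plek and Mpeg1 were within their spread of each other. In LN Treg, Ctss was at 209 ± 10.2 CPM per kb and the other members lay between 0.0399 (Csf1r) and 0.892 (Lyz2) CPM per kb. In spleen Tcon the order was Ctss (117 ± 7.99), Jchain (42.6 ± 26.8), Lyz2 (15.2 ± 1.83), Mpeg1 (1.97 ± 0.873) and Plek (1.68 ± 0.151), and the last pair was again within its spread. In LN Tcon, Ctss was at 141 ± 13.5 CPM per kb and the other 4 members were at 0.133 to 0.349 CPM per kb.

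**Figure D2:**
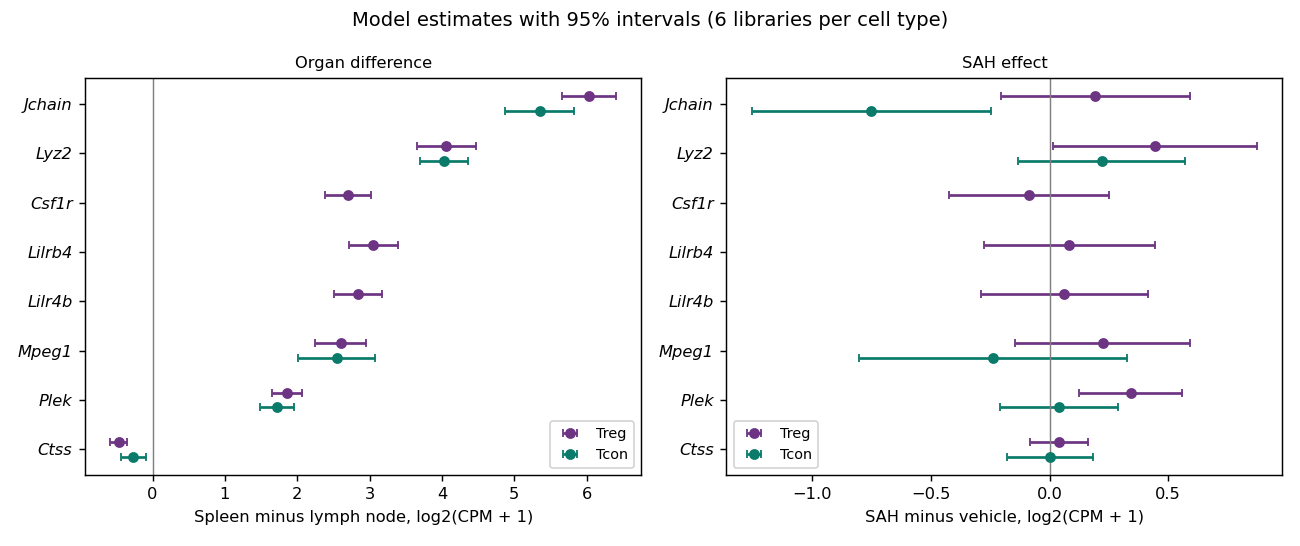
Modelled differences on the log2(CPM + 1) scale with 95% intervals, for spleen minus LN on the left and SAH minus vehicle on the right; purple is Treg and green Tcon. The organ differences reach 6.03 (Jchain in Treg), while the SAH effects lie between -0.75 and 0.44 and none was called.

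The macrophage and monocyte list holds 40 genes, of which 17 were listed in Treg and 15 in Tcon. Of the 12 Treg genes that are not members, 9 were called higher in spleen (Lyz1, Cebpb, Itgam, Tyrobp, Ccr2, Hmox1, Cd68, Apoe and Cybb), Axl was called lower and 2 were not called. Lyz1 and Tyrobp were below 1 CPM in every LN Treg library and so listed only through spleen. The median difference of the 12 genes, Lyz1 and Tyrobp included, was 0.67, against a median near 0 over all genes. Without the members the list summed to 223 to 242 CPM in LN Treg and 277 to 296 CPM in spleen Treg. Adgre1, Cd14, Spi1, Fcgr1 and the C1q genes, which define macrophages, had no row in the tables used here.

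Cybb, the catalytic subunit of the phagocyte NADPH oxidase, was at 22.1, 24.9 and 20.7 CPM in LN Treg and 52.8, 58.6 and 47.5 CPM in spleen Treg, a difference of 1.19 (adjusted p = 3.03e-07 by limma). Tyrobp, the adaptor DAP12 of activating receptors, was chosen after its values were seen. It was at 0.02, 0.20 and 0.08 CPM in LN Treg and 2.11, 2.81 and 3.85 CPM in spleen Treg. Axl, a receptor kinase that binds dying cells, went the other way, from 68.0, 77.6 and 75.0 CPM in LN to 52.4, 54.8 and 48.8 CPM in spleen. Ms4a6c was abundant in both organs, at 57.3 to 60.9 CPM in LN Treg and 58.6 to 62.7 CPM in spleen Treg, and was not called.

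In Tcon, 5 of 11 macrophage and monocyte genes that are not members were called higher in spleen (Ms4a6c, Lyz1, Cybb, Ccr2 and Hmox1) and none lower. Of these, Lyz1 was listed in Tcon only through spleen. Cybb was at 0.56, 1.49 and 0.82 CPM in LN Tcon and 7.89, 6.64 and 5.87 CPM in spleen Tcon. Lyz1 was at 0, 0.07 and 0.05 CPM in LN Tcon and 2.27, 2.54 and 2.88 CPM in spleen Tcon. The list without members summed to 114 to 117 CPM in LN and 152 to 166 CPM in spleen. Its median difference was 0.29, Lyz1 included.

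**Figure D3:**
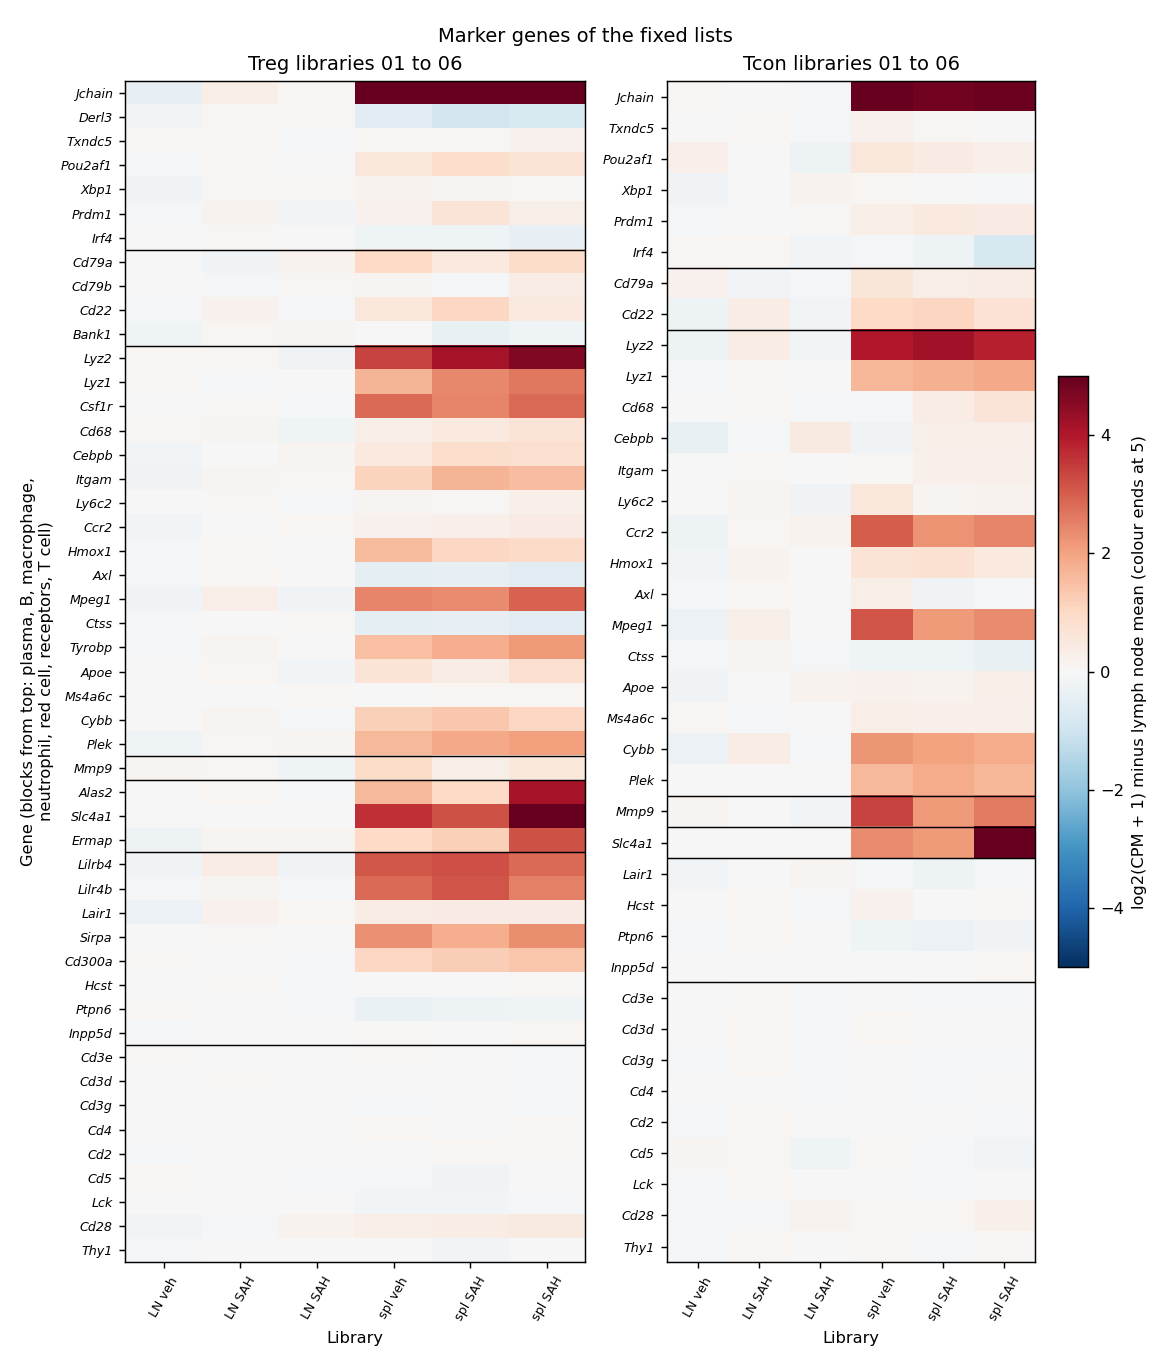
Each row is a listed gene of the marker lists and each column a library, coloured by log2(CPM + 1) minus the mean of the 3 LN libraries of the same cell type (the colour ends at a difference of 5). Jchain, Lyz2 and Slc4a1 are dark red in spleen, Xbp1 and Txndc5 stay pale, and the T cell genes at the bottom stay near 0.

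Markers of other cell types moved between organs too, and their part in the members' organ difference was not tested. The red cell list (10 genes, 3 listed in Treg) summed to 1.25 to 1.89 CPM in LN Treg and 14.0 to 154.5 CPM in spleen Treg, and all 3 genes were called higher. Alas2 and Slc4a1 in Treg, and Slc4a1 in Tcon, were listed only through spleen. Slc4a1, the red cell anion exchanger band 3, was at 12.1, 8.41 and 109.7 CPM in spleen Treg and at 4.21, 3.38 and 50 CPM in spleen Tcon, so library 06 stood far above 04 and 05 in both cell types. Every member called between organs was still called without library 06, which restates the selection. Leaving it out does not remove the red cell gap, since Slc4a1 was at 0.025 to 0.065 CPM in LN Treg.

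Of 17 B cell genes, 4 were listed in Treg, where Cd22 and Cd79a were called higher and the sum went from 19.3 to 21.2 CPM in LN to 27.6 to 28.0 CPM in spleen. In Tcon 2 were listed, at 2.68 to 3.56 CPM in LN and 5.39 to 6.85 CPM in spleen, with Cd22 called higher. Of 16 neutrophil genes only Mmp9, a secreted protease, was listed: 5.30 to 7.16 CPM in LN Treg, 7.86 to 12.7 in spleen Treg, 0.0255 to 0.213 in LN Tcon and 3.92 to 10.7 in spleen Tcon, called higher in both. In Tcon it was listed only through spleen. None of 7 mast cell and basophil genes was listed. Platelet genes (2 of 7 listed) and stromal and endothelial genes (1 of 10, Pecam1) had no call in either cell type.

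Of 17 dendritic cell genes, 5 were listed in each cell type, of which Runx2 and Cst3 were called higher in spleen Treg and Runx2 in spleen Tcon. The CD8 and NK cell list (9 genes) summed to 40.6 to 41.1 CPM in LN Treg and 33.5 to 34.8 CPM in spleen Treg, where Nkg7 was called lower (-0.81 on the log2 scale) and Klrb1c (1.02) and Eomes (0.65) were called higher. In Tcon it summed to 40.6 to 46.1 CPM in LN and 78.5 to 102 CPM in spleen, with Klrd1, Eomes, Nkg7 and Klrb1c called higher. Of these, Klrb1c was listed in Tcon only through spleen. Nkg7, a granule protein of cytotoxic cells, was at 1.36, 2.09 and 1.07 CPM in LN Tcon and 21.2, 14.8 and 16.3 CPM in spleen Tcon. Among T cell reference genes, Cd28 was called higher in spleen Treg and none was called in Tcon.

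Other lists follow the pathways of single members.
For Lilrb4 and Lilr4b, the list of paired receptors and their adaptors holds 21 symbols. Of 7 listed Treg genes that are not members, Tyrobp, Cd300a and Sirpa were called higher in spleen, the phosphatase Ptpn6, which inhibitory receptors recruit, was called lower, and 3 were not called. Tyrobp, Cd300a and Sirpa were below 1 CPM in every LN Treg library and so listed only through spleen, which fixed their direction. Sirpa, an inhibitory receptor for CD47 chosen after its values were seen, was at 0, 0.04 and 0 CPM in LN Treg and 3.91, 2.52 and 4.05 CPM in spleen Treg. Ptpn6 went from 216, 213 and 199 CPM in LN Treg to 166, 174 and 182 CPM in spleen Treg. In Tcon Ptpn6 was the 1 call of 4, also lower.

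For Ctss, 15 other cathepsins, inhibitors and partners were listed in Treg of a list of 18. In spleen Treg, 6 were called higher (Ctse, Ctsa, Cst7, Ctsb, Cd74 and Cst3) and Ctsw lower. Ctsb, cathepsin B, was at 210.0 to 232 CPM in LN Treg and 238 to 258 CPM in spleen Treg, a difference of 0.18, opposite in sign to that of Ctss. Ctsw, a cathepsin of cytotoxic lymphocytes, went from 104.8, 113 and 123 CPM to 34.3, 33.1 and 41.2 CPM, a difference of -1.63. Ctsd, cathepsin D, was not called (0.10). In Tcon, 4 of 14 were called higher (Cst7, Cd74, Ctsb and Lgmn) and none lower. Cd74, the invariant chain that Ctss cuts, was at 3.39, 5.88 and 5.56 CPM in LN Tcon and 25.0, 15.2 and 19.6 CPM in spleen Tcon.

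For Plek, 10 actin and adhesion partners other than Plek were listed in each cell type of a list of 13. Itgb3, an integrin subunit of platelets, and Rap1b, a small GTPase of adhesion, were called higher in spleen Treg, and none was called in Tcon. Tln1, talin, which links integrins to actin, was at 1278 to 1327 CPM in LN Treg and 1291 to 1408 CPM in spleen Treg and was not called.

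The genes whose pattern over the 6 libraries was nearest to a member were found by the root mean square difference of centred log2(CPM + 1). For Lyz2 in Treg they were Lilrb4 (0.69), Lilr4b (0.76), Fn1 (0.78), Csf1r (0.79) and Mpeg1 (0.79). Nearest to Jchain in Treg were Hbbt1 (1.06), Lyz2 (1.10), Slc4a1 (1.24), Lilrb4 (1.53) and Lilr4b (1.65). For Lyz2 in Tcon they were Ccl5 (0.33), Klrb1c (0.49), Xcl1 (0.58), Nkg7 (0.62) and Serpina3g (0.68), and for Jchain in Tcon Lyz2 (0.86), Klrb1c (0.97), Ccl5 (1.07), Xcl1 (1.18) and Hbbt1 (1.28). The members were selected on the organ gap, so their nearness to each other restates the selection, and Lilrb4, Lilr4b and Csf1r had no Tcon row and could not be named there. Ccl5, Klrb1c, Xcl1 and Nkg7 are genes of cytotoxic and NK cells.

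The second question of the design was what the peptide did to these genes. None of the 8 Treg members and none of the 5 Tcon members was called for an effect of SAH over both organs (limma, all 6 libraries of a cell type), where 21 of 10405 Treg genes (0.202%) and 103 of 9886 Tcon genes (1.04%) were called. The Tcon calls were 87 higher and 16 lower, and 48 and 28 after the same rescaling. At an unadjusted p below 0.05 the tables held 733 (7.04%) and 1391 (14.1%) genes. A missed threshold does not show that the peptide left the members alone. The intervals below are for single genes, unadjusted for the number of genes, so they can look clearer than the adjusted p beside them. They do not cover the spread of vehicle libraries within an organ, which is not known.

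In Treg the estimates ran from -0.09 for Csf1r to 0.44 for Lyz2 on the log2(CPM + 1) scale. Plek was higher in each SAH library than in the vehicle library of its organ, by 1.32 and 1.42 times in LN and 1.23 and 1.35 times in spleen. Its estimate was 0.34 (95% interval 0.13 to 0.56, adjusted p = 0.398 by limma). For Lyz2 the estimate was 0.44 (0.01 to 0.87, adjusted p = 0.693 by limma), from ratios of 1.77 and 2.42 in spleen and 1.03 and 0.696 in LN. Jchain had an estimate of 0.19 (-0.20 to 0.59, adjusted p = 0.925 by limma). Mpeg1 (0.22), Lilrb4 (0.08), Lilr4b (0.06) and Ctss (0.04) had adjusted p-values of 0.903 to 0.983 by limma.

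In Tcon, Jchain was lower in both spleen SAH libraries than in the spleen vehicle library, at 0.358 and 0.380 times its level, and at 0.826 and 0.752 times in LN, where it rests on 14, 13 and 11 reads. The estimate over both organs was -0.75 (-1.25 to -0.25, adjusted p = 0.164 by limma). It was -1.42 without library 01 (adjusted p = 0.00352 by limma), where no LN vehicle library is left and the estimate rests on spleen, and -0.09 without library 04, the spleen vehicle library. The authors' deposited table gives Jchain in Tcon a log2 fold change of -1.37 and an FDR of 5.27e-30, the smallest p of its 9886 genes, with 317 genes called (3.21%). The estimate of -0.75 is on the log2(CPM + 1) scale, which understates changes of genes near the floor, as Jchain is in LN. The deposited value comes from the authors' own model, so the sizes are not directly comparable. The same 6 libraries stand behind both results, and the authors' deposited table calls no other member in either cell type.

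The other Tcon members had estimates of 0.22 for Lyz2 (adjusted p = 0.604 by limma), -0.24 for Mpeg1 (adjusted p = 0.739), 0.04 for Plek and 0.00 for Ctss. Mpeg1 in spleen Tcon was at 0.447 and 0.546 times vehicle, and in LN at 3.47 and 2.01 times. The LN ratios rest on 10 reads in the vehicle library, and their 95% counting intervals are 1.70 to 7.79 and 0.906 to 4.78 (exact, counting error only). Lyz2 in LN Tcon had ratios of 8.30 and 2.23 over 3 vehicle reads, with counting intervals of 2.56 to 42.7 and 0.510 to 13.4. In LN Treg, Jchain had ratios of 5.79 and 4.27 over 6 vehicle reads, with counting intervals of 2.43 to 16.7 and 1.71 to 12.7.

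**Figure D4:**
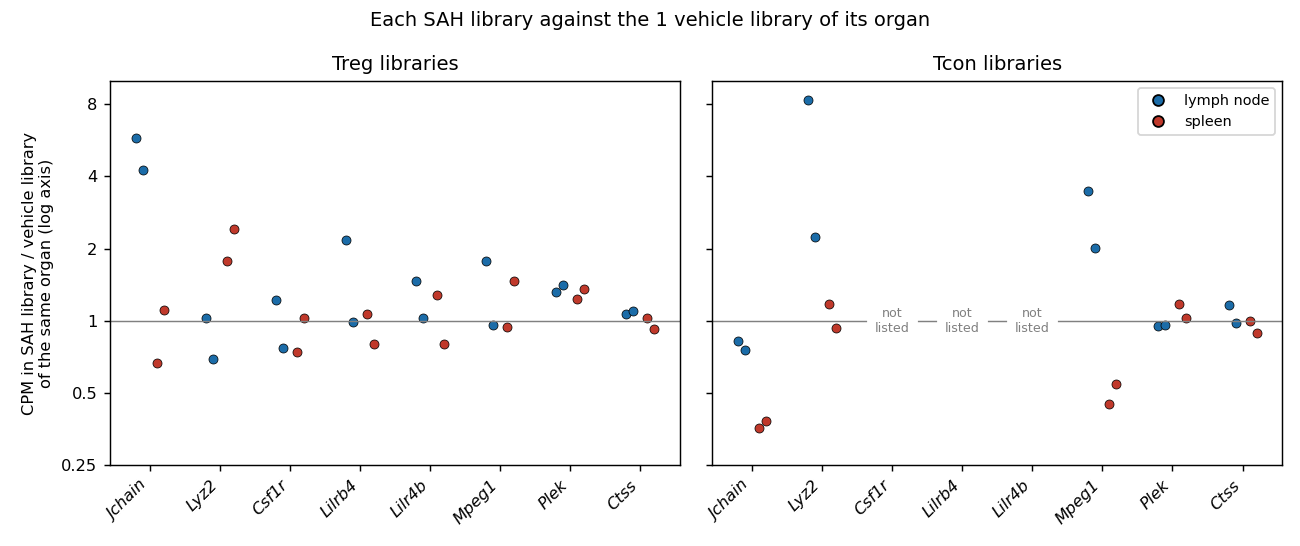
CPM of each SAH library divided by the 1 vehicle library of the same organ (log axis, line at 1), blue for LN and red for spleen. Jchain in spleen Tcon lies at 0.358 and 0.380, Lyz2 in spleen Treg at 1.77 and 2.42, and the high LN points of Lyz2, Jchain and Mpeg1 rest on 3, 6 and 10 vehicle reads.

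Whether the SAH effect differed between organs was tested in a model with an interaction. It was called for 1 of 10405 Treg genes (0.00961%), which is no member, and for 0 of 9886 Tcon genes (limma). At an unadjusted p below 0.05 there were 251 (2.41%) in Treg and 504 (5.1%) in Tcon. The spleen effect minus the LN effect was 1.14 for Lyz2 in Treg (0.58 to 1.71, adjusted p = 0.687 by limma). For Jchain in Treg it was -0.81 (-1.44 to -0.17, adjusted p = 0.9998 by limma). In Tcon it was -1.33 for Jchain (-1.74 to -0.92, adjusted p = 0.311 by limma) and -1.35 for Mpeg1 (-1.99 to -0.72, adjusted p = 0.624 by limma). With a pseudocount of 5 the Jchain value in Tcon was -1.31 with an adjusted p of 0.0121 by limma. With a pseudocount of 0.1 it was -1.17 with an adjusted p of 0.625 by limma. Leaving out an SAH library leaves 1 SAH library in its organ, so only effect sizes are given for those fits. The interaction then ran from 0.92 to 1.36 for Lyz2 in Treg and from -1.17 to -0.44 for Jchain in Treg. For Jchain in Tcon it ran from -1.37 to -1.29.

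These facts stand beside the SAH values. In spleen Treg the red cell genes were highest in library 06, where Lyz2 also was highest, and the part of this in the result was not tested. In library 05 Lyz2 was at 38.2 CPM with Slc4a1 at 8.41 CPM, below the 12.1 CPM of the vehicle library. In spleen Tcon, Jchain was similar in libraries 05 and 06 while Slc4a1 was at 3.38 and 50 CPM.

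Of the listed pathway and marker genes, none was called for an SAH effect in Treg and only Ctsl, the lysosomal protease cathepsin L, in Tcon. It was at 20, 31.5 and 29.8 CPM in LN Tcon and at 23.1, 28.8 and 32.0 CPM in spleen Tcon, with SAH above vehicle in each organ. Its effect was 0.48 on the log2(CPM + 1) scale (adjusted p = 0.0193 by limma). In Treg, Ctsl was at 15.3 to 16.6 CPM in LN and 15.5 to 18.9 CPM in spleen. The median SAH effect of the 11 macrophage and monocyte genes that are not members was 0.08 in Tcon and that of the 12 such genes in Treg 0.09, against medians near 0 over all genes. For plasma cell genes without Jchain it was -0.10 in Tcon and 0.02 in Treg.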

How the data were processed

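RNA of sorted cells was extracted with Trizol and columns and made into stranded mRNA libraries, per the labels' protocols. The submitters' processing notes name TopHat, Bowtie, edgeR and mm10, with no role or version. Each of the 2 tables holds, for 6 libraries, a normalised signal that the authors deposited as CPM of an effective library size (column totals 971928 to 1021433). The authors deposited beside it a log2 fold change and a log2 mean CPM, a likelihood ratio and a call of direction as scores, and p-values with FDR.

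From these, log2(CPM + 1) was fitted with limma 3.58.1 in R 4.3.3 (empirical Bayes with intensity trend, two-sided, Benjamini-Hochberg over all genes of a table) after a filter of at least 1 CPM in at least 2 libraries. Organ and treatment were fitted together within each cell type (3 residual degrees of freedom), the interaction with 2, and both cell types in 1 fit with 6. The fits were run on simulated counts, drawn independently with the same spread setting for every gene. Such counts do not cover deviations that libraries share. Reads per gene were estimated from the steps between low values, where all lay within 0.1 of a whole read, and serve only as a description and for counting intervals.

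The members and the 14 gene lists were chosen with earlier results of these data known. Named genes are the members, up to 4 genes per list with the highest mean CPM, list genes called for an SAH effect, and the 5 genes nearest to Lyz2 and Jchain. Others named were chosen after their values were seen, as were examples among called genes. Alternatives were another pseudocount (0.1 or 5), filter, scaling or trend setting, 1 symbol per value pattern, a replicate block, and leaving out each library.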

Additional observations from a re-analysis of the deposited data

Results flagged for a closer look

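Several marker genes had an organ difference (spleen minus LN, log2(CPM + 1)) that differed between Treg and Tcon in the fit over 12 libraries. Treg minus Tcon, this was 1.27 for Itgam, an integrin subunit of myeloid cells, and negative for Mmp9 (-2.15), the chemokine receptor Ccr2 (-2.28), the cytotoxic granule gene Nkg7 (-3.69), the NK receptor gene Klrb1c (-2.43), the cathepsin Ctsw (-1.29) and the invariant chain Cd74 (-1.38). Ccr2 was at 22.6 to 26.6 CPM in LN Treg and 29.0 to 33.5 CPM in spleen Treg, against 0.533 to 1.10 CPM in LN Tcon and 7.76 to 14.2 CPM in spleen Tcon. In Tcon, Mmp9 and Klrb1c were listed only through spleen. No member was among the genes with a called difference.

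In LN, both SAH libraries lay above the vehicle library in Treg and below it in Tcon for Jchain and for Plek. The SAH change in Treg minus that in Tcon was 0.68 for Jchain and 0.38 for Plek on the log2(CPM + 1) scale. These differences were not tested, and Jchain rests on 6 to 39 reads per library there. Plek in LN Tcon was at 0.951 and 0.957 times vehicle, from 62 and 58 SAH reads against 58 vehicle reads, so its Tcon change was small.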

How the results depend on the processing

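Every member called between organs kept its direction and its call under each alternative run, and Ctss in Tcon stayed uncalled in each fit that left out a library. Over all member results and alternatives, 510 values kept direction and side of the threshold, 34 changed sign and 7 came to pass the threshold. The block accounts for 1 of these 7. Others, given above, are Jchain in Tcon for SAH without library 01 and for the interaction with a pseudocount of 5. The rest are interaction fits of Lyz2 or Jchain with an SAH library left out, for which only effect sizes are given above. No sign change concerns a called effect, and the cause was not tested.

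Counts of called genes moved more. Without the intensity trend, 7 genes were called for SAH in Treg, 11 in Tcon and 0 for the Treg interaction. The Treg interaction had 2 calls with a pseudocount of 0.1, with at least 5 CPM required and with 1 symbol per value pattern, and the Tcon interaction had 1 with a pseudocount of 5. Leaving out each library in turn gave 768 (without 02) to 1830 (without 06) calls between organs in Treg and 215 (without 03) to 628 (without 02) in Tcon. For SAH it gave 7 (without 01) to 95 (without 06) in Treg and 11 (without 03) to 226 (without 02) in Tcon. The interaction had 0 to 94 calls in Treg and 0 to 15 in Tcon, both highest without 05, and could not be estimated without a vehicle library. The organ difference between cell types had 62 (without 03) to 133 (without 02) calls.

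With library number as a replicate block, that difference had 703 calls in place of 143, and the Jchain estimate of 0.68 had an adjusted p of 0.0106 by limma. Over 9784 genes, the deviations of the Treg and Tcon libraries with equal numbers correlated at 0.44 for 02 and 03 and 0.56 for 05 and 06, and the labels do not state a pairing.

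Among uncalled values, a pseudocount of 5 gave -0.023 for the SAH effect on Jchain in Treg and interactions of 0.078 for Mpeg1 and 0.096 for Plek in Treg. A pseudocount of 0.1 gave 0.066 for the SAH effect on Mpeg1 in Tcon and, Treg minus Tcon, organ differences of -1.09 for Lyz2, -0.51 for Mpeg1 and -0.080 for Plek. Rescaling gave -0.043 for the SAH effect on Ctss in Tcon. Leaving out each library gave SAH effects in Treg of -0.17 to 0.012 for Csf1r, -0.040 to 0.12 for Ctss, -0.21 to 0.60 for Jchain, -0.061 to 0.20 for Lilr4b, -0.11 to 0.28 for Lilrb4 and -0.13 to 1.02 for Lyz2. In Tcon these ran from -0.086 to 0.090 for Ctss, -0.91 to 0.44 for Mpeg1 and -0.041 to 0.12 for Plek. Interactions in Treg ran from -0.37 to 0.031 for Csf1r, -0.40 to 0.21 for Lilr4b, -0.32 to 0.28 for Mpeg1 and -0.065 to 0.065 for Plek. Treg minus Tcon, the organ difference ran from -0.32 to 0.52 for Lyz2 and -0.17 to 0.50 for Mpeg1.

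The planned edgeR test on recovered reads was not run. The steps between low values gave whole reads within 0.1, but an automatic check of the deposited columns did not recognise the step, so the columns were kept as a normalised signal. LN levels of Jchain, Csf1r and, in Tcon, Lyz2 rest on few reads, and SAH contrasts on 1 vehicle library per organ.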
